A study of Micropterus salmoides with 68 samples.

Results

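Spleens of largemouth bass labelled abnormal were compared with spleens of fish labelled normal after 4 days of recovery from road transport. The 8 libraries, 4 from abnormal and 4 from normal fish, were taken by their labels and are 8 of the 68 liver and spleen libraries of the study. Every one of the 17998 genes that reached 1 TPM (transcripts per 1000000, a level relative to all transcripts of a library) in at least 3 spleen libraries was tested. The fish were farmed fingerlings of 11.99 ± 4.34 g, per the labels. Fish of both groups were carried for 4 h in aerated boxes of 125 fish in 30 L of water, then moved to indoor tanks in a room held at 28 °C and left unfed. The labels name the 2 groups abnormal and normal and do not say what set them apart. No group of fish that stayed untransported and unfed for the same days was used here, and 4 spleens taken before transport give the only level ahead of it. Tissue was collected from single fish, so each library is 1 fish.

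The spleen of a teleost fish is a blood filter and a lymphoid organ in one. Its red pulp holds red blood cells, which in fish keep their nucleus and their RNA, thrombocytes, which are nucleated and take the place of platelets, and macrophages that engulf worn red cells and microbes. Its white pulp holds B cells and T cells, and a reticular and endothelial network carries the blood through. In bulk tissue a lower level of the genes of a cell type can come from fewer cells or from less RNA per cell, and these cannot be told apart here. The label of the tissue was met by tlx1, a transcription factor that marks the spleen, at a mean of 101 TPM in abnormal and 80.2 TPM in normal spleens.

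The libraries of the 2 groups differed in make-up, described here by 4 loci chosen for their level in abnormal spleens. That choice favours a larger share there, so the shares were not tested. The 4 loci with the highest mean in abnormal spleens were hbae5, an alpha globin gene, and LOC119891502, LOC119891526 and LOC119915756, which carry no gene name. Together they took 58.1%, 34.9%, 14.1% and 26.3% of all TPM in abnormal fish 1 to 4, against 1.00%, 2.32%, 0.823% and 2.31% in normal fish 1 to 4. The 4 libraries from before transport had 8.09 to 17.2%, above the normal range and overlapping the low end of the abnormal one. TPM adds up to a fixed total in every library, so a larger share for some loci leaves a smaller one for the rest. Each result was therefore also computed after median-of-ratios rescaling, which divides a library by the median ratio of its genes to their average, and these size factors were 0.376, 0.768, 1.03 and 1.02 in abnormal fish 1 to 4, against 1.26, 1.19, 1.26 and 1.21 in normal fish 1 to 4. Abnormal fish 1 stood apart: it had 13320 genes at 1 TPM or more, while the other abnormal spleens had 15584 to 16489 and the normal spleens 16219 to 16551. Ribosomal RNA loci made up 0.844 to 2.28% of TPM in abnormal and 0.855 to 1.63% in normal spleens.

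**Figure D1:**
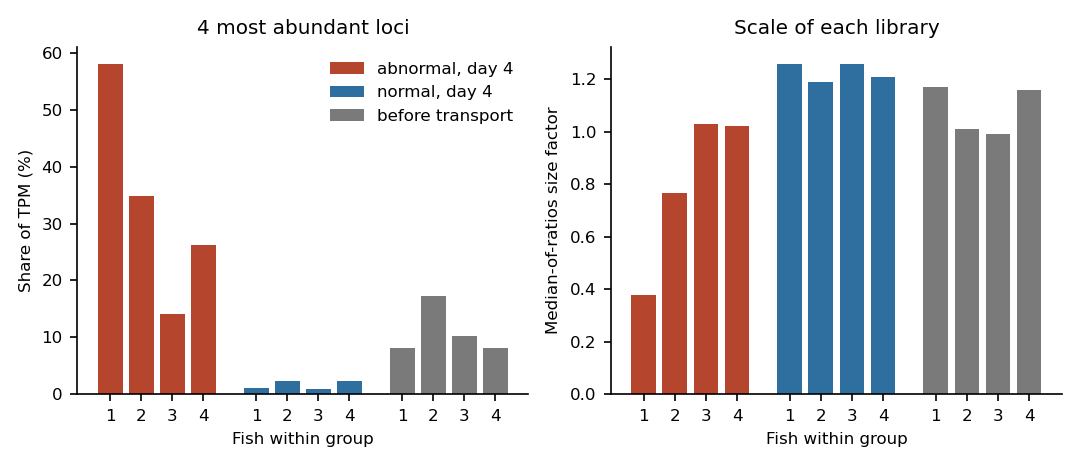
Each bar is 1 spleen, numbered within its group: abnormal at day 4, normal at day 4 and before transport. The left panel gives the percentage of all TPM held by the 4 loci chosen as most abundant in abnormal spleens. It ran from 14.1 to 58.1% in abnormal and from 0.823 to 2.32% in normal spleens. The right panel gives the median-of-ratios size factor, lowest in abnormal fish 1 at 0.376.

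Abnormal and normal spleens differed in 7577 of the 17998 genes (42.1%; limma on log2(TPM + 1), Benjamini-Hochberg adjusted p under 0.05). As deposited, 854 genes (4.74%) were higher and 6723 (37.4%) were lower in abnormal spleens, and the median difference over all genes was −0.55 on the log2 scale. After rescaling the split was nearly even, with 3412 genes (19.0%) higher, 3503 (19.5%) lower and a median of 0.01. Dividing by a median ratio centres the differences near 0, so the near-even split and this median follow largely from the rescaling. The 854 genes higher as deposited were also called higher after rescaling, and the 3503 genes lower after rescaling were also called lower as deposited. Another 3220 genes were lower only as deposited, 2558 were higher only after rescaling, and no gene was called in opposite directions. Rescaling divided every abnormal library by a smaller factor than every normal one, and so raised the differences of most genes. That the calls were nested, with none opposite, follows largely from this. Without abnormal fish 1, 951 genes (5.28%) were higher and 4153 (23.1%) lower, with a median of −0.32. With the 4 most abundant loci left out of the total, 1693 genes (9.41%) were higher and 2951 (16.4%) lower, with a median of −0.09. No library of one group overlapped the other group in 806 genes (4.48%) for the higher direction and in 6399 (35.6%) for the lower one. In what follows a gene is said to have risen or fallen where it passed the test as deposited, its log2 difference is abnormal minus normal on the log2(TPM + 1) scale with its SE, and a call that was lost after rescaling is stated with the gene. Counts of list members are to be read against the shares of all genes, 4.74% higher and 37.4% lower as deposited and 19.0% and 19.5% after rescaling. The log2(TPM + 1) scale understates the change of genes near or below 1 TPM.

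**Figure D2:**
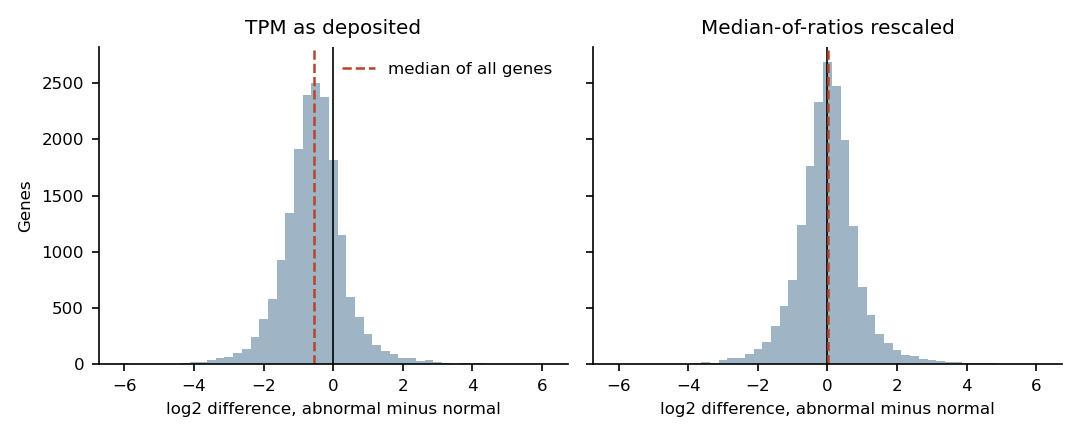
The histograms count the genes tested by their log2 difference, abnormal minus normal, in bins of 0.25 with values beyond 6 drawn at 6. The dashed line marks the median of all genes, at −0.55 for TPM as deposited (left) and 0.01 after rescaling (right).

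Among the most abundant loci of abnormal spleens, hbae5, LOC119891502 and LOC119915756 were higher there. The values and test of LOC119891526 alone are not given here. Not all of the most abundant loci rose: beta actin fell and others did not pass the test. The alpha globin gene hbae5 stood at 120855, 83901, 32625 and 60048 TPM in abnormal fish 1 to 4, against 836, 2470, 631 and 2487 TPM in normal fish 1 to 4. Every abnormal spleen was far above every normal spleen, and the 31026 to 71664 TPM of fish before transport reached into the abnormal range and stayed above every normal spleen. The difference was 5.64 ± 0.69 (adjusted p = 4.6e-07). LOC119891502 was the most abundant locus, with 218496, 126496, 53805 and 97526 TPM in abnormal spleens against 4672, 10281, 3749 and 10080 TPM in normal spleens. In the RefSeq gene table LOC119891526, LOC119891502 and LOC119891533 follow one another next to a pseudogene and nprl3, and LOC119915756 lies between zgc:163057 and hbae5. LOC119915756 held 66167, 39886, 14964 and 28190 TPM in abnormal spleens against 364, 911, 284 and 1172 TPM in normal spleens. Neighbouring loci of this kind can be alike in sequence, so the split of reads between them is uncertain.

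Most genes of red blood cells rose, and the list of 20 red cell genes holds no globin. Of these, 13 were higher and 2 lower, with a median difference of 2.55, and after rescaling 13 were higher and none was lower, with a median of 3.2. Over all genes 4.74% were higher as deposited. The summed TPM of the list was 1886, 1693, 975 and 1821 in abnormal spleens and 228, 323, 196 and 350 in normal spleens, and 478 to 829.1 before transport. The groups did not overlap, which is the smallest p the exact permutation test allows with 4 fish a group (two-sided p = 0.0286; 0.057 adjusted over 12 summed cell type lists). Without abnormal fish 1 the counts were again 13 higher and 2 lower.

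Among red cell genes rhd, a member of the Rh blood group family of red cell membrane proteins, had 138, 113, 61.8 and 152 TPM in abnormal spleens against 1.78, 4.02, 3.47 and 4.05 TPM in normal spleens. It rose by 4.72 ± 0.38 (adjusted p = 4.5e-10). The receptor of erythropoietin, the hormone that drives red cell formation, is encoded by epor, which had 93.2, 105, 59.4 and 139 TPM in abnormal spleens against 3.27, 3.98, 2.14 and 8.08 TPM in normal spleens (4.27 ± 0.44, adjusted p = 2.4e-08). Hemogen, a nuclear protein of developing red cells encoded by hemgn, stood at 237, 206, 133 and 268 TPM in abnormal spleens against 8.5, 16.5, 5.67 and 16.1 TPM in normal spleens (4.13 ± 0.40, adjusted p = 7.1e-09). In all 3 genes the abnormal spleens were also above the range from before transport, whose highest values were 22.3 TPM for rhd, 24.4 TPM for epor and 53.2 TPM for hemgn. Another gene of the list, ank1a, an ankyrin that anchors the red cell membrane skeleton, also stood among the 12 largest rises of all genes with a symbol (3.69 ± 0.54). So did cahz, a carbonic anhydrase of fish red cells (4.58 ± 0.51), and klf17, a Kruppel-like transcription factor (3.71 ± 0.44). Both cahz and klf17 are outside the list and were named for their rise, so they add nothing to its count. The 2 red cell genes that fell were tfr1b, a transferrin receptor (fell by 0.84 on the log2 scale), and cpox, a haem synthesis enzyme (fell by 1.00), and neither passed the test after rescaling (adjusted p = 0.086 for tfr1b and 0.45 for cpox).

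Haem and iron genes were called in both directions. Of 21 tested, 5 were higher and 4 lower, and after rescaling 8 were higher and 2 lower; the median difference was −0.28 as deposited and 0.45 rescaled. The red cell form of the first enzyme of haem synthesis, alas2, had 787, 636, 291 and 577 TPM in abnormal spleens against 34.8, 78.4, 38.9 and 79.6 TPM in normal spleens. It rose by 3.29 ± 0.50 (adjusted p = 1.0e-05), and its groups did not overlap. The form of the same enzyme used by most other tissues, alas1, went the other way, with 9.11, 18.0, 22.5 and 15.1 TPM in abnormal spleens against 48.6, 83.6, 55.4 and 52.2 TPM in normal spleens (fell by 1.86 ± 0.27, adjusted p = 4.0e-06). Also higher were uros (1.98 ± 0.25) and ppox (1.08 ± 0.36), which act later in haem synthesis, tfr1a, a transferrin receptor (1.09 ± 0.32), and blvrb, a biliverdin reductase (1.54 ± 0.43). The call of ppox was lost without abnormal fish 1 (adjusted p = 0.085). Alongside alas1, tfr1b and cpox, aco1, an iron-responsive aconitase, fell by 1.12 ± 0.30. Haem oxygenase hmox1a, which breaks haem down, had 216, 625, 1152 and 589 TPM in abnormal spleens against 1077, 456, 504 and 810 TPM in normal spleens, and the groups overlapped (−0.28 ± 0.56, adjusted p = 0.72; 0.45 after rescaling).

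Thrombocyte genes were called in the higher direction only. Of 11 tested, 6 were higher and none lower, with a median difference of 1.90, and 8 were higher after rescaling. The receptor of thrombopoietin, mpl, which drives the thrombocyte lineage, had 191, 383, 478 and 569 TPM in abnormal spleens against 12.4, 32.9, 22.1 and 17.0 TPM in normal spleens (4.18 ± 0.44, adjusted p = 3.8e-08). The 234 to 353 TPM of fish before transport lay within the abnormal range, and normal spleens stood far below both. Of the subunits of the receptor by which thrombocytes bind to injured vessels, gp9 had 99.7, 87.8, 53.0 and 118 TPM in abnormal spleens against 5.63, 6.02, 5.85 and 7.96 TPM in normal spleens (3.58 ± 0.31, adjusted p = 1.4e-09). A second subunit, gp1bb, rose by 2.62 ± 0.32. The summed TPM of the list was 619, 1020, 1216 and 1626 in abnormal spleens against 232, 310, 203 and 246 in normal spleens (exact permutation test, two-sided p = 0.0286, adjusted p = 0.057).

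Most neutrophil and macrophage genes fell. Of 13 neutrophil genes 11 were lower and none higher, with a median of −1.98, and 8 were lower after rescaling, when the background was 19.5%. Their summed TPM was 315, 770, 901 and 662 in abnormal spleens against 1826, 2643, 1920 and 1891 in normal spleens, with no overlap under either scaling (exact permutation test, two-sided p = 0.0286, adjusted p = 0.057). The 609 to 860 TPM of fish before transport lay within the abnormal range. The metalloprotease adam8a had 1.73, 8.94, 9.16 and 6.18 TPM in abnormal spleens against 42.2, 33.0, 29.8 and 63.9 TPM in normal spleens (fell by 2.63 ± 0.40, adjusted p = 9.5e-06). Of the other neutrophil genes, the leukotriene B4 receptor ltb4r and nccrp1, fell by 2.79 ± 0.52 and 3.03 ± 0.58. Of 16 macrophage genes 11 were lower and 1 higher, with a median of −1.38, and after rescaling 8 were lower and 1 higher. The scavenger receptor marco had 17.9, 48.1, 92.0 and 77.5 TPM in abnormal spleens against 383, 328, 298 and 354 TPM in normal spleens (fell by 2.74 ± 0.37, adjusted p = 1.9e-06). Before transport marco stood at 81.2 to 135 TPM, overlapping the abnormal range and below every normal spleen. Abnormal fish 1 was lowest for both marco and adam8a, and all 4 abnormal spleens lay below all normal ones.

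Further macrophage genes differed in level and in size of change. The transcription factor tfec fell by 2.47 ± 0.35 and csf1rb, a receptor for macrophage growth factor, by 1.62 ± 0.40. The 1 macrophage gene that rose was timd4, a receptor for dying cells, at 0.34, 0.25, 1.73 and 1.49 TPM in abnormal spleens against 0, 0.08, 0.22 and 0.14 TPM in normal spleens. These levels are low, and the difference was 0.73 ± 0.23 (adjusted p = 0.012). Summed over the list, macrophage genes had 941, 2380, 4588 and 2944 TPM in abnormal spleens against 6198, 5525, 5353 and 5913 TPM in normal spleens. After rescaling these sums overlapped (exact permutation test, two-sided p = 0.0571). The sum before transport, as deposited, was 3253 to 7150 TPM and overlapped both groups.

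Also in the macrophage list was acod1, which makes the antimicrobial metabolite itaconate. It had 0.12, 0.43, 0.31 and 0.12 TPM in abnormal spleens against 74.8, 33.6, 45.3 and 269 TPM in normal spleens, and 0.26 to 0.51 TPM before transport (fell by 5.93 ± 0.65, adjusted p = 6.9e-08). The decoy receptor of interleukin 13, il13ra2, had the same shape, with 0.05, 0.67, 0.23 and 0.05 TPM in abnormal spleens, 73.1, 69.7, 34.2 and 193 TPM in normal spleens and 0.04 to 0.43 TPM before transport (fell by 5.98 ± 0.58, adjusted p = 7.9e-09). Both genes were near 0 in abnormal fish and before transport, and well above it in each of the 4 normal fish.

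Inflammatory cytokine and signalling genes were lower in the main. Of 31 tested, 22 were lower and 1 higher, with a median of −1.28, and after rescaling 17 were lower and 2 higher, with a median of −0.75. The transcription factor cebpb, which acts in myeloid cells, had 55.1, 109, 125 and 48.3 TPM in abnormal spleens against 882, 1502, 951 and 1261 TPM in normal spleens (fell by 3.84 ± 0.49, adjusted p = 7.7e-07). The feedback inhibitor of cytokine receptors socs3a had 4.62, 16.1, 11 and 7.12 TPM in abnormal spleens against 162, 170, 98.4 and 222 TPM in normal spleens (fell by 4.00 ± 0.55, adjusted p = 2.6e-06). Fish before transport had 342 to 485 TPM of cebpb, between the groups, and 89.4 to 141 TPM of socs3a, overlapping the normal fish. The anti-inflammatory cytokine il10 had 0.26, 0.66, 0.42 and 0.29 TPM in abnormal spleens against 2.99, 4.31, 4.02 and 11.7 TPM in normal spleens (fell by 2.12 ± 0.40). The 1 gene that rose was tlr9, a sensor of bacterial DNA (1.35 ± 0.35). The best known pro-inflammatory cytokines were low and did not pass the test: il1b had 0.32 to 2.02 TPM in abnormal and 1.24 to 2.49 TPM in normal spleens (adjusted p = 0.23), and tnfa had 0.52 to 4.49 TPM in abnormal and 2.07 to 17.6 TPM in normal spleens (adjusted p = 0.31). The matrix protease of neutrophils mmp9 had 25.5, 75.3, 81.0 and 12.4 TPM in abnormal spleens against 56.7, 255, 260 and 79.8 TPM in normal spleens (−1.78 ± 0.85, adjusted p = 0.092). The fall of these genes came beside lower sums of neutrophil and macrophage genes, and the part of cell make-up in it was not tested.

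**Figure D3:**
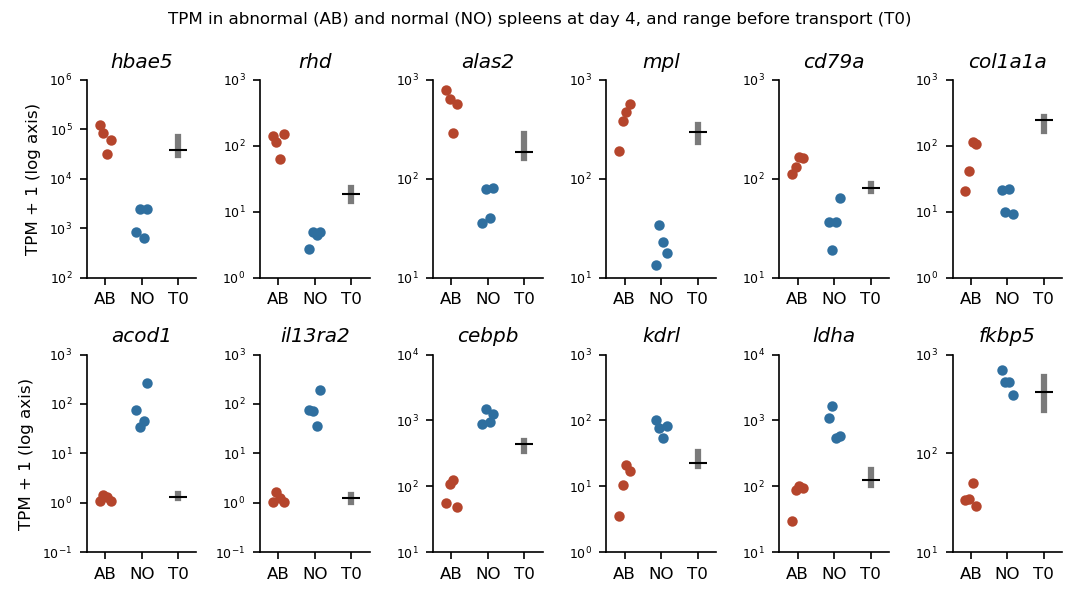
Points are the 4 abnormal (AB) and 4 normal (NO) spleens at day 4, on a log axis of TPM + 1, and the grey bar with its tick is the range and median of 4 spleens before transport (T0). The upper row shows genes that rose and the lower row genes that fell; the groups overlap in 1 of the 12, the collagen gene col1a1a.

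Most interferon, acute phase and complement genes did not pass the test. Of 15 interferon response genes 1 was higher and 2 lower as deposited, and 3 were higher and none lower after rescaling; the median was −0.27 as deposited and 0.41 rescaled. The antiviral gene rsad2 rose, with 57.0, 395, 42.1 and 142 TPM in abnormal spleens against 8.5, 33.9, 9.06 and 55.0 TPM in normal spleens, and the groups overlapped (2.39 ± 0.77, adjusted p = 0.013). The 2 that fell were socs1a and ifi35, and neither passed the test after rescaling or without abnormal fish 1 (adjusted p = 0.10 and 0.13 for socs1a, 0.34 and 0.31 for ifi35). Of 10 acute phase genes 2 were lower and none higher under either scaling. These were stat3, a signal carrier of cytokine receptors (fell by 1.27 ± 0.31), and leap2, an antimicrobial peptide (fell by 2.61 ± 0.77). Neither was called after rescaling without abnormal fish 1. Apart from saa, the other members are also in the hepatocyte list. The acute phase protein saa did not pass the test, at 0, 28.9, 546 and 8.92 TPM in abnormal spleens against 167, 133, 22.9 and 44.2 TPM in normal spleens (adjusted p = 0.34). Of 13 complement genes 5 were lower and none higher, near the 37.4% of all genes that were lower, and after rescaling 2 were lower and 1 higher. The terminal component c7b had 0.90, 4.81, 35.6 and 3.03 TPM in abnormal spleens against 97.2, 121, 130 and 93.4 TPM in normal spleens (fell by 4.12 ± 0.73, adjusted p = 7.0e-05). A subunit of the first component, c1qb, fell by 1.53 ± 0.39. The other 3, cfi, cfd and c7a, did not pass after rescaling (adjusted p = 0.056, 0.36 and 0.074) or without abnormal fish 1, when 2 genes of the list were lower.

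Lymphocyte genes moved in both directions. Of 10 B cell genes 3 were higher and 3 lower as deposited, and 4 were higher and 1 lower after rescaling; the median was −0.40 as deposited and 0.31 rescaled. The antigen receptor subunit cd79a had 110, 131, 167 and 163 TPM in abnormal spleens against 36.0, 18.1, 35.5 and 63.4 TPM in normal spleens (1.98 ± 0.40, adjusted p = 0.00029). All abnormal spleens were above all normal ones and above the 74.1 to 88.5 TPM of fish before transport. The B cell transcription factors ebf1a and pax5 rose by 2.02 ± 0.34 and 1.57 ± 0.36. Among those that fell, ptpn6, a phosphatase of many blood cells, held its call after rescaling (fell by 1.40 ± 0.35), and pou2f2a and blnk did not (adjusted p = 0.29 and 0.93). Summed TPM of B cell genes was 240, 368, 533 and 487 in abnormal spleens against 421, 418, 439 and 487 in normal spleens, so the groups overlapped. After rescaling the sums did not overlap, at 637, 479, 517 and 479 in abnormal spleens against 334, 350, 348 and 402 in normal spleens (exact permutation test, two-sided p = 0.0286, adjusted p = 0.057). Of 7 plasma cell genes 4 were lower and 1 higher, and after rescaling 3 were lower and 2 higher. The plasma cell transcription factor prdm1a fell by 1.93 ± 0.29, and creld2 and txndc5, which act in protein folding, by 2.31 ± 0.41 and 1.38 ± 0.38. The folding enzyme fkbp11 fell by 1.28 ± 0.36 and was not called after rescaling (adjusted p = 0.11), and irf4a, another lymphocyte transcription factor, rose by 0.98 ± 0.37.

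T and NK cell genes depended on the scale and on 1 fish. Of 18 tested, 3 were higher and 7 lower with all fish, 5 higher and 1 lower after rescaling, and 4 higher and 1 lower without abnormal fish 1. The 7 lower genes are close to the share of all genes, 37.4%. The chemokine receptor ccr9a had 61.6, 71.5, 115 and 59.1 TPM in abnormal spleens against 232, 420, 321 and 302 TPM in normal spleens (fell by 2.06 ± 0.34, adjusted p = 2.7e-05). Fish before transport were at 346 to 534 TPM, and the groups at day 4 did not overlap. The transcription factors eomesa and gata3 rose by 1.23 ± 0.41 and 1.08 ± 0.43. A perforin of killer cells, prf1.3, rose by 1.42 ± 0.53, a call lost without abnormal fish 1 (adjusted p = 0.059). As deposited, the groups overlapped for each of these genes. Before transport eomesa stood at 18.3 to 27.4 TPM, gata3 at 2.86 to 17.9 TPM and prf1.3 at 39.1 to 60.9 TPM, the last above both groups. The T cell kinase lck fell by 1.23 ± 0.43 with all fish and was not called after rescaling (adjusted p = 0.12) or without abnormal fish 1 (adjusted p = 0.18). Antigen presentation genes were lower in 3 of 16 cases, all immunoproteasome subunits, psmb9a (fell by 1.56 ± 0.36), psmb8a (1.21 ± 0.31 lower) and psmb10 (0.98 ± 0.26 lower). Only psmb9a kept its call after rescaling, when 5 genes of the list were higher.

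Genes of the splenic stroma and endothelium were called in both directions. Of 30 tested, 15 were lower and 5 higher, with a median of −1.09, and after rescaling 12 were lower and 10 higher. The endothelial growth factor receptor kdrl had 2.56, 9.38, 20.1 and 16.4 TPM in abnormal spleens against 102, 76.6, 53.0 and 82.0 TPM in normal spleens (fell by 2.84 ± 0.40, adjusted p = 2.9e-06). Before transport kdrl stood at 19.4 to 32.1 TPM, overlapping the abnormal range and below every normal spleen. The membrane protein of thin-walled vessels plvapa, the chemokine cxcl12a and the junction protein cdh5 fell by 3.33 ± 0.40, 2.34 ± 0.34 and 2.00 ± 0.42. Smooth muscle actin acta2 had 62.7, 97.4, 203 and 219 TPM in abnormal spleens against 15.4, 26.2, 49.0 and 14.0 TPM in normal spleens (2.43 ± 0.46, adjusted p = 0.00014). Fish before transport had 352 to 655 TPM of acta2, above both groups. The collagen genes col1a1a, col1a2 and col1a1b rose by 1.98 ± 0.51, 1.79 ± 0.51 and 1.77 ± 0.52, and the smooth muscle protein tagln by 1.18 ± 0.38. For col1a1a the values were 20.02, 40.9, 115 and 108 TPM in abnormal spleens against 20.8, 9.08, 21.4 and 8.29 TPM in normal spleens, and abnormal fish 1 overlapped the normal range. The groups overlapped for col1a2 and col1a1b as well. Before transport col1a1a stood at 167.5 to 274 TPM, col1a2 at 305 to 445 TPM and col1a1b at 159 to 251 TPM, above both groups. Extracellular matrix remodelling genes were lower in 15 of 27 cases and higher in 1, and after rescaling lower in 11 and higher in 5. The protease genes adamts1 and mmp14a fell by 4.94 ± 0.49 and 2.92 ± 0.33, and thbs2a, a thrombospondin, rose by 1.51 ± 0.47.

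Marker lists of neighbouring tissues gave no calls or few. None of 22 hepatocyte genes tested and none of 7 pancreatic acinar genes was called by limma under either scaling, and 0 and 1 of them had an unadjusted p under 0.05. The summed TPM of hepatocyte genes varied widely, at 278, 1614, 5525 and 154 in abnormal spleens against 486, 985, 1170 and 782 in normal spleens. Pancreatic acinar genes summed to 30.6 to 235 TPM in abnormal and 46.4 to 523 TPM in normal spleens. Their sum before transport was 37.6 to 5396 TPM. Of 3 skeletal muscle genes 1 fell, mylz3, a myosin light chain, at 0.15 to 0.64 TPM in abnormal and 1.28 to 5.03 TPM in normal spleens. No gene of the pancreatic islet list was measured. Of the summed lists not yet given, plasma cell genes (96.4 to 193 TPM in abnormal and 237 to 367 TPM in normal spleens) and T and NK cell genes (149 to 397 TPM in abnormal and 424 to 802 TPM in normal spleens) did not overlap as deposited. Both overlapped after rescaling (exact permutation test, two-sided p = 0.60 for plasma cells and 0.171 for T and NK cells). Sums of dendritic and antigen presentation, stroma and skeletal muscle genes overlapped as deposited (exact permutation test, two-sided p = 0.314, 0.914 and 0.314). After rescaling, stroma sums (1847 to 3239 in abnormal and 1368 to 1768 in normal spleens) and skeletal muscle sums (395 to 741 in abnormal and 170 to 248 in normal spleens) did not overlap and were higher in abnormal spleens (exact permutation test, two-sided p = 0.0286 and adjusted p = 0.057 for each). The rescaled sums before transport, 4811 to 6697 for stroma and 808 to 1224 for skeletal muscle, lay above both groups. The skeletal muscle sum was nearly all tpm1, a tropomyosin also made by smooth muscle (mean 457 TPM in abnormal and 256 TPM in normal spleens), and actc1a, a sarcomeric actin, was listed at 0 in all 4 abnormal spleens. Dendritic and antigen presentation sums still overlapped (exact permutation test, two-sided p = 0.0571).

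Most hypoxia genes fell. Of 35 tested, 26 were lower, 4 higher and 5 not called, with a median of −1.64, and after rescaling 21 were lower and 4 higher, with a median of −0.98. The oxygen-sensing prolyl hydroxylase egln3, itself induced by low oxygen, had 1.06, 6.06, 5.24 and 2.74 TPM in abnormal spleens against 210, 332, 56.0 and 47.5 TPM in normal spleens (fell by 4.78 ± 0.66, adjusted p = 2.5e-06). Fish before transport, at 4.82 to 11.9 TPM, were close to abnormal fish and below every normal fish. The growth factor binding protein igfbp1a, the hypoxia-induced tmem45a and epas1a, a subunit of hypoxia-inducible factor, fell by 5.17 ± 0.66, 3.83 ± 0.49 and 2.63 ± 0.33. The 4 that rose were pdk1, a kinase that holds back pyruvate use in mitochondria (1.02 ± 0.26), mxi1, an antagonist of MYC (1.27 ± 0.34), bnip3la, which clears mitochondria, in mammals also from maturing red cells (0.98 ± 0.31), and znf395b, a zinc finger protein (0.98 ± 0.36).

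Most glycolysis genes fell too. Of 17 genes 11 were lower and 1 higher, with a median of −2.05, and after rescaling 9 were lower and 1 higher. Lactate dehydrogenase ldha had 28.6, 86.4, 101 and 94.3 TPM in abnormal spleens against 1080, 1638, 535 and 589 TPM in normal spleens (fell by 3.61 ± 0.43, adjusted p = 2.7e-07). The range before transport, 106 to 178 TPM, lay just above the abnormal fish. Phosphoglycerate mutase pgam1b and pyruvate kinase pkma fell by 3.00 ± 0.31 and 2.77 ± 0.33. The gene that rose was pfkmb, a phosphofructokinase, with 29.3, 19.0, 16.8 and 41.6 TPM in abnormal spleens against 4.68, 3.35, 1.53 and 2.68 TPM in normal spleens (2.74 ± 0.46).

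Mitochondrial genes were lower mainly as deposited. Of 34 oxidative phosphorylation genes 26 were lower and none higher, with a median of −1.14, and after rescaling 7 were lower, with a median of −0.42. Over all genes 37.4% were lower as deposited and 19.5% after rescaling, so only the rescaled count of lower genes is near the share of all genes. None was higher after rescaling, against 19.0% of all genes, and the rescaled median of all genes was 0.01. After rescaling without abnormal fish 1, 10 were lower, when 16.0% of all genes were. Subunits of complex II were among those lower under both scalings, with sdhb falling by 1.66 ± 0.22 and sdhdb by 1.86 ± 0.27, as was ndufa10 of complex I (fell by 1.32 ± 0.20). Of 24 fatty acid oxidation genes tested out of 25 measured, 15 were lower and none higher, and after rescaling 6 were lower and 3 higher, not far from the 19.5% and 19.0% of all genes. Without abnormal fish 1, 7 were lower. The electron carrier etfa and the oxidation enzymes acox3 and hadhab fell by 1.61 ± 0.28, 1.41 ± 0.26 and 1.52 ± 0.34. Of 19 cholesterol synthesis genes tested out of 21 measured, 7 were lower and 1 higher, 4 lower and 2 higher after rescaling, and 4 lower without abnormal fish 1. These shares are near those of all genes, 37.4% lower as deposited and 19.5% rescaled. The lipoprotein receptor ldlrb and the synthesis enzyme idi1 fell by 2.42 ± 0.43 and 1.68 ± 0.31, while squalene synthase fdft1 rose by 1.22 ± 0.33.

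Genes that respond to glucocorticoids, the stress steroids of which cortisol is the main one in fish, were often lower in abnormal spleens. Of 24 tested, 13 were lower and 1 higher, with a median of −1.07, and after rescaling 13 were lower and 4 higher. The receptor chaperone fkbp5 had 32.6, 33.7, 49.7 and 28.8 TPM in abnormal spleens against 696, 523, 521 and 386 TPM in normal spleens (fell by 3.84 ± 0.76, adjusted p = 0.00023). Fish before transport had 275 to 597 TPM, so here it was the abnormal fish that lay away from both other groups. The transcription factor klf9 had 1.19, 2.62, 4.01 and 2.75 TPM in abnormal spleens against 61.6, 75.3, 50.5 and 31.7 TPM in normal spleens and 9.10 to 20.8 TPM before transport (fell by 3.93 ± 0.37, adjusted p = 4.7e-09). The phosphatase dusp1 had 2.96, 7.0, 9.98 and 8.60 TPM in abnormal spleens against 102, 214, 113 and 147 TPM in normal spleens and 76.0 to 105 TPM before transport (fell by 4.19 ± 0.51, adjusted p = 4.4e-07). The stress-induced inhibitor of growth signalling ddit4 fell by 4.68 ± 0.71, with 32.0, 27.8, 36.9 and 25.3 TPM in abnormal spleens, 812, 1392, 731 and 497 TPM in normal spleens and 456 to 929 TPM before transport. The 1 gene that rose was per1b, a clock gene (0.91 ± 0.36).

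Immediate early genes, which are switched on within minutes of a stimulus, were lower in 16 of 23 cases and higher in none, and after rescaling lower in 11 and higher in 1. The AP-1 subunit fosl2 had 2.35, 10.7, 8.44 and 4.80 TPM in abnormal spleens against 138, 170, 106 and 146 TPM in normal spleens (fell by 4.35 ± 0.41, adjusted p = 4.7e-09). Circadian clock genes read differently on the 2 scales. Of 26 clock genes 2 were higher and 7 lower as deposited, with a median of 0.04, and 14 were higher and 4 lower after rescaling, with a median of 0.54. Besides per1b, the repressor nr1d2b rose by 0.96 ± 0.27, while the repressors bhlhe40 and bhlhe41 fell by 2.30 ± 0.42 and 1.85 ± 0.52. The transcription factor nfil3 fell by 0.84 ± 0.22 and was not called after rescaling (adjusted p = 0.18).

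Genes of protein folding and of the response to misfolded or scarce protein were mostly lower. Of 32 unfolded protein response genes 27 were lower and none higher, with a median of −1.48, and after rescaling 18 were lower and 2 higher. The chaperone of the endoplasmic reticulum hspa5 had 12.3, 56.0, 41.0 and 35.1 TPM in abnormal spleens against 197, 51.6, 131 and 320 TPM in normal spleens (fell by 2.15 ± 0.49, adjusted p = 0.00089), and the groups overlapped. The disulphide isomerases p4hb and pdia6 fell by 2.00 ± 0.33 and 1.97 ± 0.35, and ssr4, of the translocon, by 1.43 ± 0.25, a call lost after rescaling (adjusted p = 0.065). Of 29 integrated stress and apoptosis genes 19 were lower and 1 higher, and after rescaling 10 were lower and 5 higher. The quinone oxidoreductase tp53i3, a target of p53 in mammals, had 5.32, 23.1, 21.1 and 12.2 TPM in abnormal spleens against 716, 523, 785 and 958 TPM in normal spleens (fell by 5.65 ± 0.82, adjusted p = 4.6e-06). Fish before transport, at 5.1 to 50.03 TPM, overlapped the abnormal fish and lay far below the normal ones. The serine synthesis enzymes phgdh and psat1 fell by 2.58 ± 0.32 and 2.28 ± 0.30. The transcription factor atf5a rose by 0.69 ± 0.28, a call lost without abnormal fish 1 (adjusted p = 0.061).

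Amino acid transporters and tRNA synthetases were lower in 23 of 28 genes tested out of 33 measured and higher in 1, with a median of −1.68, and lower in 19 after rescaling. The shared chain of several amino acid transporters, slc3a2a, had 9.25, 30.0, 45.2 and 34.2 TPM in abnormal spleens against 217, 382, 239 and 338 TPM in normal spleens (fell by 3.42 ± 0.32, adjusted p = 4.3e-09). The transporter slc7a8a fell by 3.21 ± 0.43 and the synthetase nars1 by 2.18 ± 0.30, while the transporter slc7a6 rose by 1.15 ± 0.30. Cytosolic heat shock genes split, with 10 of 23 lower and 5 higher as deposited, 5 lower and 9 higher after rescaling, and 6 lower and 4 higher without abnormal fish 1. The chaperone gene hspa8b had 53.0, 63.9, 49.5 and 79.4 TPM in abnormal spleens against 8.58, 6.99, 4.61 and 8.19 TPM in normal spleens (2.95 ± 0.34, adjusted p = 1.9e-07), and 68.9 to 94.1 TPM before transport. The co-chaperone dnajb1a, the heat shock transcription factor hsf1 and the small chaperone hspb1 rose by 1.77 ± 0.31, 0.91 ± 0.25 and 1.56 ± 0.48. The fifth, hsp90aa1.2, rose by 1.54 ± 0.57 with all fish and was not called without abnormal fish 1 (adjusted p = 0.058). The chaperone hspa4b fell by 2.11 ± 0.34. Of 33 proteasome genes 29 were lower as deposited and none higher, against 37.4% of all genes lower. After rescaling 7 were lower, near the 19.5% of all genes lower, and 1 was higher, against 19.0% of all genes. The rescaled median was −0.38, against 0.01 for all genes. The subunits psmc4 and psmd6 fell by 1.65 ± 0.28 and 1.31 ± 0.23 and kept their calls, while psmb1 fell by 1.1 ± 0.20 and did not (adjusted p = 0.17).

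Most proliferation genes were lower. Of 45 cell cycle and mitosis genes 40 were lower and none higher, with a median of −1.99, and after rescaling 37 were lower and 2 higher, with a median of −1.50, against 19.5% of all genes lower. The proliferation marker mki67 had 1.11, 5.09, 8.26 and 6.59 TPM in abnormal spleens against 20.3, 17.2, 39.0 and 25.8 TPM in normal spleens (fell by 2.21 ± 0.56, adjusted p = 0.0023). Fish before transport, at 6.21 to 15.3 TPM, overlapped the abnormal range and lay below the normal one. The mitotic cyclin ccnb3 and the mitotic kinases aurka and aurkb fell by 2.15 ± 0.34, 2.21 ± 0.37 and 1.92 ± 0.34. Of 41 DNA replication genes 38 were lower and none higher, 22 lower and 2 higher after rescaling, and 25 lower without abnormal fish 1. The flap endonuclease fen1, thymidine kinase tk1 and the origin licensing factor cdc6 fell by 2.06 ± 0.35, 2.40 ± 0.41 and 1.44 ± 0.27.

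Few ribosomal protein genes passed the test. Of 73 cytosolic ribosomal protein genes 3 were lower and none higher as deposited, with a median of −0.31, and 1 was lower and 1 higher after rescaling, with a median of 0.42. These genes together took 14.3, 19.2, 25.5 and 20.7% of TPM in abnormal spleens against 23.1, 23.2, 25.0 and 21.8% in normal spleens. The 3 that fell were rps27.2 (1.43 ± 0.27 lower), rpl5a (1.36 ± 0.28 lower) and rpl4 (0.74 ± 0.29 lower), and of these rps27.2 was also called after rescaling. The abundant rpl23 and rps20 did not pass the test (adjusted p = 0.97 and 0.93). Of 37 ribosome biogenesis genes 28 were lower and none higher, and 16 were lower after rescaling, with bysl, gar1 and rrp15, which process ribosomal RNA precursors, falling by 1.51 ± 0.28, 1.48 ± 0.27 and 1.32 ± 0.25. Of these 37 genes, 5 were lower when abnormal fish 1 was left out of the rescaled comparison, in which 15.2% of all genes were higher and 16.0% lower.

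Lysosome and autophagy genes were lower in 27 of 42 cases and higher in 3; after rescaling 13 were lower and 8 higher, and without abnormal fish 1, 17 were lower. The autophagy enzyme atg3 had 14.6, 41.2, 59.2 and 42.9 TPM in abnormal spleens against 288, 250, 258 and 361 TPM in normal spleens (fell by 2.98 ± 0.37, adjusted p = 5.2e-07). The lysosomal membrane protein lamp1a and the autophagy protein wipi1 fell by 2.12 ± 0.26 and 1.99 ± 0.24. The 3 that rose were ulk1b, a kinase that starts autophagy (1.74 ± 0.38), tecpr1b, which tethers autophagosomes (1.1 ± 0.28), and sqstm1, an autophagy cargo receptor (1.04 ± 0.32). Glutathione and antioxidant genes were lower in 17 of 35 cases and higher in 4, and after rescaling lower in 8 and higher in 7. Catalase cat, which destroys hydrogen peroxide and is abundant in red cells, had 216, 208, 137 and 277 TPM in abnormal spleens against 45.7, 31.3, 34.8 and 38.0 TPM in normal spleens (2.42 ± 0.33, adjusted p = 1.7e-06). Abnormal spleens were also above the 50.6 to 58.3 TPM of fish before transport. The other 3 that rose were gpx4a, a peroxidase of membrane lipids (2.24 ± 0.34), gsta.1, a glutathione transferase (2.16 ± 0.34), and prdx2, a peroxiredoxin of red cells (0.76 ± 0.20). Malic enzyme me1 and the thioredoxin inhibitor txnipa fell by 3.02 ± 0.32 and 2.22 ± 0.33.

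**Figure D4:**
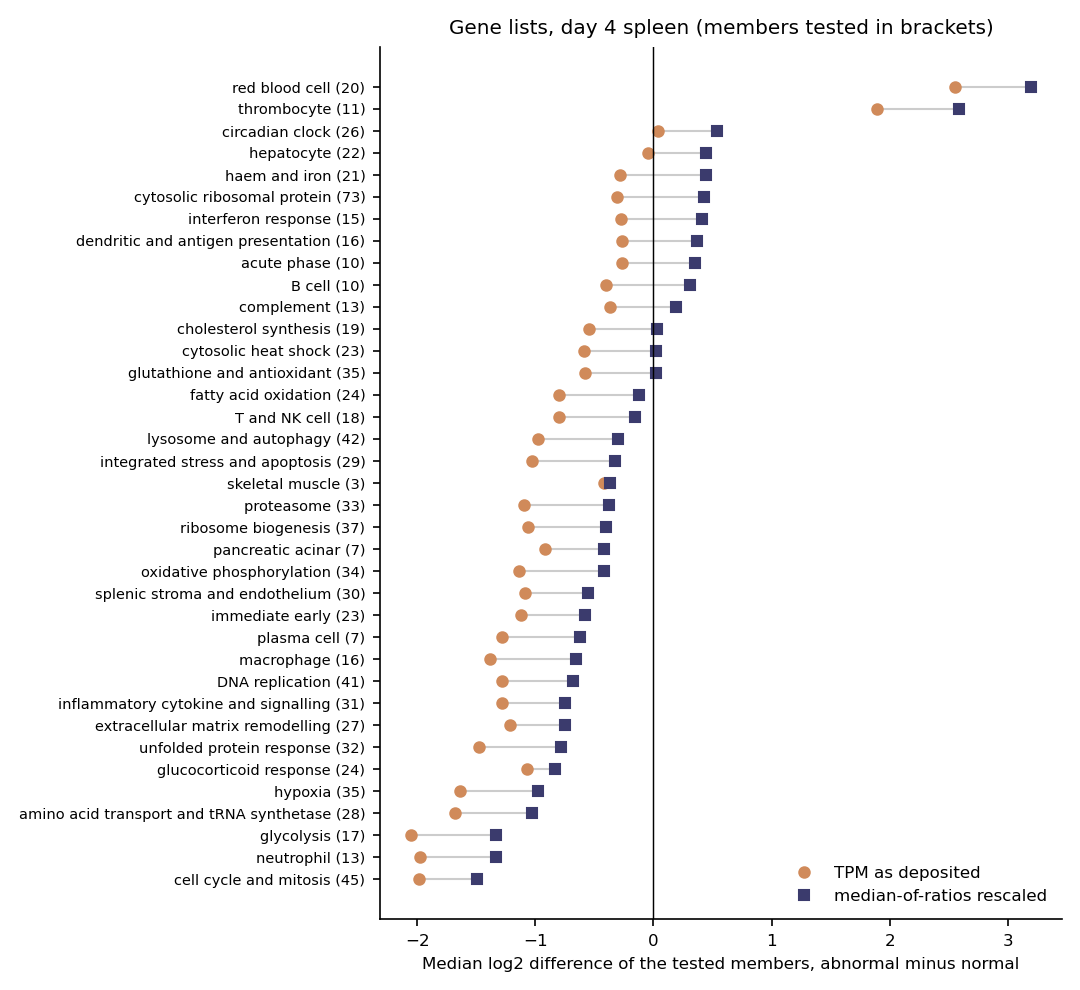
Each line is a gene list with the number of members tested; the circle is the median log2 difference, abnormal minus normal, of TPM as deposited and the square the same after median-of-ratios rescaling. Red blood cell and thrombocyte genes lie highest at 2.55 and 1.90 as deposited, and glycolysis, cell cycle and neutrophil genes lowest at −2.05, −1.99 and −1.98, against −0.55 for all genes.

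The remaining genes among the 12 largest rises and 12 largest falls lie outside the lists. Rises were seen in phospho1, a phosphatase of phosphocholine and phosphoethanolamine (4.34 ± 0.38), paplnb, a papilin of the extracellular matrix (3.94 ± 0.43), prr5a, a subunit of the growth kinase complex mTORC2 (3.94 ± 0.34), and plaat1l, a phospholipid acyltransferase (3.93 ± 0.39). For plaat1l the abnormal spleens had 143, 146, 158 and 165 TPM, against 8.94, 8.62, 10.6 and 8.28 TPM in normal spleens. Groups that do not overlap were a condition for choosing all of these rises and falls. Falls were seen in rrad, a small GTPase, at 1.18, 4.28, 2.24 and 2.99 TPM in abnormal spleens against 450, 162, 90.6 and 294 TPM in normal spleens. Before transport rrad stood at 354 to 602 TPM, so the abnormal fish lay below both other groups (fell by 5.92 ± 0.62, adjusted p = 4.0e-08). Uridine phosphorylase upp1 had 19.2, 52.8, 51.1 and 29.0 TPM in abnormal spleens against 1273, 1367, 881 and 1106 TPM in normal spleens and 43.7 to 52.1 TPM before transport (fell by 4.98 ± 0.42, adjusted p = 1.1e-09). The metalloreductase steap4, the sorting nexin snx10b and echdc2, an enzyme of the hydratase family, fell by 5.38 ± 0.93, 4.91 ± 0.53 and 4.48 ± 0.39. Of the 10 most abundant loci of abnormal spleens, beta actin actb2 fell by 1.5 ± 0.33 and LOC119882652, LOC119887490 and LOC119888605 did not pass the test (adjusted p = 0.55, 0.75 and 0.27).

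The same labels were compared on other days with other fish, which allowed day 4 to be set beside days 3 and 5 without shared libraries. There were 3 fish a group on day 3 and 4 on day 5. On day 3, 373 genes (2.07%) were higher and 5655 (31.4%) lower in abnormal spleens, and on day 5, 924 (5.13%) were higher and 4690 (26.1%) lower. Of the 854 genes higher on day 4, 827 had the same sign on day 3 and 834 on day 5, and 324 and 686 were called. Of the 6723 lower on day 4, 6690 had the same sign on day 3 and 6690 on day 5, and 4867 and 4332 were called. These counts are as deposited, where the median difference over all genes was −0.62 on day 3 and −0.37 on day 5. Most genes thus lay below 0 on both days, which favours a shared sign among genes lower on day 4. No gene called on day 4 was called in the opposite direction on day 3 or 5. Red cell genes were higher in 10 of 20 cases on day 3 and 13 on day 5, and cell cycle genes lower in 40 and 38 of 45. The difference of alas2 was 1.21 on day 3, 3.29 on day 4 and 2.69 on day 5, and that of rhd 2.82, 4.72 and 4.34.

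**Figure D5:**
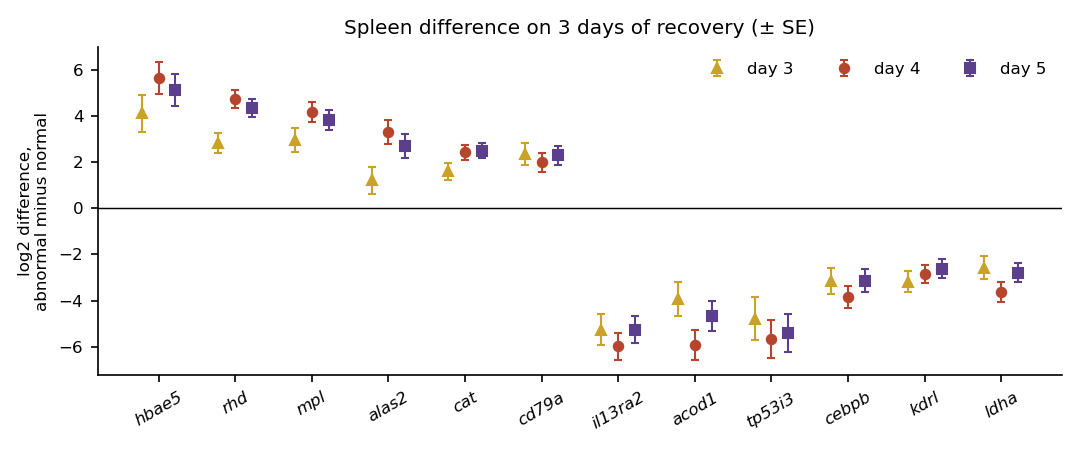
Log2 difference, abnormal minus normal, with its SE for 12 genes on days 3, 4 and 5 of recovery. Each gene keeps its sign on the 3 days; hbae5 stood at 4.11, 5.64 and 5.09 and il13ra2 at −5.26, −5.98 and −5.25.

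A test of whether the day 4 difference departed from the mean of the day 3 and day 5 differences called 2 genes (0.0111% of 17998), and 230 had an unadjusted p under 0.05. The 2 genes, named here after their values were seen since both lack a symbol, are LOC119912705 and LOC119912706. LOC119912705 was listed at 0 in all 4 abnormal spleens and had 142, 133, 151 and 149 TPM in normal spleens at day 4. LOC119912706 had 73.6, 80.3, 112 and 60.6 TPM in abnormal spleens and was listed at 0 in all 4 normal spleens. On day 3 both groups held only LOC119912706, at 58.5 to 113 TPM in abnormal and 108 to 139 TPM in normal spleens, with LOC119912705 listed at 0. On day 5 the pattern was that of day 4: abnormal spleens had LOC119912705 listed at 0 and 62.8 to 87.8 TPM of LOC119912706, and normal spleens had 89.5 to 174 TPM of LOC119912705 and 0 to 22.1 TPM of LOC119912706. Their IDs are consecutive, and the sum of both at day 4 was 73.6, 80.3, 112 and 60.6 TPM in abnormal spleens against 142, 133, 151 and 149 TPM in normal spleens. How reads were shared between these loci was not tested, so the values of each alone are uncertain.

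The difference between abnormal and normal fish at day 4 was not the same in liver and spleen. In liver, as deposited, 2326 of 18666 genes (12.5%) were higher and 1216 (6.51%) lower in abnormal fish, with a median of 0.14. The spleen difference was above the liver difference in 609 genes (3.26%) and below it in 5817 (31.2%), and after rescaling in 1913 (10.2%) and 2698 (14.5%). The retinol carrier rbp4 had 64.0, 160, 304 and 240 TPM in abnormal spleens against 3833, 2608, 4404 and 2648 TPM in normal spleens, while in liver it averaged 6060 ± 1404 TPM in abnormal and 584 ± 102 TPM in normal fish (SD, n = 4 each). The spleen minus liver difference of rbp4 was −7.66 ± 0.69 (adjusted p = 1.9e-12). For il13ra2, acod1 and rrad, which fell in spleen, the liver held 0.605, 0.265 and 0.0525 TPM in abnormal fish and 0.723, 0.608 and 1.01 TPM in normal fish on average, and none was called there (adjusted p = 0.94, 0.78 and 0.28). The magnesium transporter slc41a1 rose in spleen by 1.83 ± 0.42 and averaged 1.90 ± 0.334 TPM in abnormal and 113 ± 69.8 TPM in normal liver (SD, n = 4 each). The same opposition was seen for fndc4a, a fibronectin domain protein, gpx4a and sar1ab, a GTPase of vesicle transport, which rose in spleen by 1.98 ± 0.34, 2.24 ± 0.34 and 1.92 ± 0.31 and fell in liver by 3.02, 1.75 and 1.31 on the log2 scale.

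Other genes changed alike in direction in both tissues. In liver hbae5 was higher by 3.47 in abnormal fish, and the spleen minus liver difference did not pass the test (2.17, adjusted p = 0.052). Liver rhd and mpl were higher by 2.21 and 1.82, and for both the spleen difference was larger (2.51 and 2.36, adjusted p = 0.00014 and 0.00039). In liver rhd averaged 7.43 TPM in abnormal and 0.748 TPM in normal fish, and mpl 4.33 and 0.495 TPM. At such levels the log2(TPM + 1) scale understates the liver change. The hypoxia gene egln3 was lower by 5.09 in liver and fkbp5 by 3.39, and the spleen minus liver differences of 0.31 and −0.45 did not pass the test (adjusted p = 0.84 and 0.76).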

How the data were processed

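RNA of single spleens and livers was sequenced by the authors; per the labels' protocols it was extracted with TRIzol, depleted of ribosomal RNA and made into directional libraries. The submitters' processing notes list fastp 0.23.2, a read trimmer, and Salmon 1.10.0, a transcript quantifier. The genome build is not given in the sources used here. The deposited values are TPM per gene, the unit being read from column totals near 1000000. TPM keeps no depth, so the counting error of low genes is unknown.

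Samples were grouped by their labels. One model of group means was fitted with limma 3.58.1 in R 4.3.3 to log2(TPM + 1) of 34 spleen libraries in 9 groups, which share 1 estimate of the spread (25 residual degrees of freedom, empirical Bayes with trend). A gene was tested if 3 or more spleen libraries had 1 TPM or more. The interaction with tissue used 1 fit of 68 libraries, 18 groups and 18666 genes. That fit treated liver and spleen libraries as independent, with no term for the fish. Whether a liver and a spleen came from the same fish was not examined. Adjusted p-values are Benjamini-Hochberg over all genes of a comparison, with a threshold of 0.05. Scripts were tested on simulated data. Summed TPM of 12 cell type lists were compared by exact two-sided permutation of 4 against 4 fish. Gene symbols (18657 of 18666) were found in the RefSeq table of assembly ASM1485139v1, and 9 names in date form were left as they are.

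Genes named are the 12 largest rises and falls with a symbol, a mean of 5 TPM or more in one group and libraries that do not overlap; up to 3 called members by p of each of 37 gene lists, and all members of counts of 5 or fewer; the 10 most abundant loci; fixed markers, of which cxcl8, cd3e, mpx and pcna were not matched; and the 4 largest interactions each way. One gene that this rule names is not reported here. The genes and lists were chosen with earlier results of these data known. Alternatives were median-of-ratios rescaling, quantile normalization, array weights, pseudocounts of 0.1 and 0.5, a filter of 5 TPM or none, the 8 libraries alone, a replicate block and leaving out each fish; rescaling without abnormal fish 1 and leaving out the 4 most abundant loci were added after seeing the data.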

Additional observations from a re-analysis of the deposited data

Results flagged for a closer look

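Single fish that stood far from the other 3 of their group were looked for in every named gene. Chance marks about 1 in 20 groups in such a search. With 181 named genes and 2 groups each, the marks below are no more in number than that rate would give. Abnormal fish 1 was marked as the low one in 6 genes: psmb9a (20.3 TPM), lck (5.52 TPM), ldha (28.6 TPM), sdhdb (21.2 TPM), tk1 (2.94 TPM) and bhlhe40 (9.32 TPM). It is also the spleen with the largest share of globin and neighbouring abundant loci and the lowest size factor, and the part of these in its low values was not tested. Abnormal fish 3 was low in slc41a1 (6.23 TPM). Among normal fish, fish 1 was low in lck (22.5 TPM), fish 2 in psmb10 (80.4 TPM), and fish 3 in slc41a1 (1.19 TPM) and high in tfr1b (4.46 TPM). Normal fish 4 was high in ebf1a (2.56 TPM), nars1 (72.0 TPM) and tnfa (17.6 TPM), and low in tecpr1b (0.93 TPM).

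By limma, the spleen difference between labels at day 4 departed from the mean of the day 3 and day 5 differences in 2 genes. These were LOC119912705 (−3.69) and LOC119912706 (4.48), and for both loci day 5 had the pattern of day 4. The spleen difference at day 4 departed from that of the liver in 6426 genes. Among those named, the spleen minus liver difference was −7.66 for rbp4, −5.88 for il13ra2, −5.63 for acod1 and −5.04 for rrad, and 6.83 for slc41a1, 5.00 for fndc4a, 3.99 for gpx4a and 3.22 for sar1ab on the log2 scale.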

How the results depend on the processing

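The count of genes higher in abnormal spleens was 854 as reported, and 3412 after median-of-ratios rescaling, 3263 after quantile normalization, 1818 with array weights (whose estimation did not converge), 1693 without the 4 most abundant loci and 2737 after rescaling without abnormal fish 1. The count lower was 6723, and 3503, 3406 and 2951 under rescaling, quantile normalization and without the 4 loci, and 2879 after rescaling without abnormal fish 1. The cause of these shifts was not tested beyond those settings. Leaving out 1 fish at a time gave 619 to 951 higher and 4153 to 7471 lower, the fewest lower without abnormal fish 1. Genes whose difference changed with the day numbered 2, 0 at a pseudocount of 0.1 (208 with an unadjusted p under 0.05) and 1 to 3 without 1 fish; those that changed with the tissue numbered 6426, and 4150 to 7476 without 1 fish. The 50 most abundant genes of abnormal spleens took 22.5% of TPM in normal spleens, against 6.8% for the 10 most abundant. Replicate numbers are shared by the groups. Deviations of same-numbered fish correlated at −0.099, −0.053, −0.018 and −0.11, and those of differently numbered fish at −0.13 to 0.20. With 4 fish a group these values cannot decide whether the number pairs the fish. A fit with the number as a block gave 867 higher and 6993 lower.

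Of the summed cell type lists, 4 changed sign after rescaling, to log2 differences of 0.68 for hepatocyte, 0.29 for dendritic and antigen presentation, 0.55 for B cell and 0.64 for stroma and endothelium genes. The named genes that changed sign were blnk (0.17), LOC119882652 (−1.53) and LOC119887490 (−0.67) under quantile normalization; rpl23 under it (−0.11) and without 1 fish (−0.077 to 0.17); rps20 with array weights (0.064), after rescaling (0.68, and 0.45 without abnormal fish 1), without the 4 loci (0.56) and without 1 fish (−0.15 to 0.045); hmox1a with array weights (0.14), after rescaling (0.45, and 0.57 without abnormal fish 1), after quantile normalization (0.47), without the 4 loci (0.32) and without 1 fish (−0.64 to 0.17); and after rescaling without abnormal fish 1, il1b (0.034), tnfa (0.16) and saa (0.032), with tnfa at −0.86 to 0.0092 without 1 fish. Both pseudocounts, no filter and the replicate block changed no call of the 181 named genes. TPM gives no depth, so how far low genes are limited by counting is unknown.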
